A study of Mus musculus with 6 samples.

Results

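Pi16 fibroblasts of the mouse mitral valve made up 10419 of the 34660 barcodes of a fibroblast gate, and of 53526 barcodes kept in 6 single-cell libraries. They were chosen by their own counts of unique molecular identifiers (UMIs, each standing for 1 captured transcript). Barcodes were kept from 300 genes upward and up to 10% of UMIs from mitochondrial genes. The fibroblast gate asked that Dcn, Col1a1 and Col1a2 together gave at least 1% of UMIs and that there was no UMI of Ptprc, the leukocyte surface marker, or of Pecam1, the endothelial one. Members of it with at least 3 UMIs of Pi16 were Pi16 fibroblasts if they also had at most 1 UMI of Wif1, none of Chad, fewer than 4 of Cilp, Thbs4 and Col8a1 together, fewer than 5 of Mmp3 and Lcn2 together and fewer than 5 of Igfbp3. The levels of these 14 genes follow from the choice, so they are given as descriptions and were left out of every test between cell groups. "Other fibroblasts" are the other 24241 barcodes of the gate, and they include cells that had Pi16 but were turned away by one of the limits.

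Pi16 encodes peptidase inhibitor 16, a secreted and membrane-anchored protein, and lies at chr17:29317680-29330593 on the plus strand (mm10). In mouse connective tissues it marks fibroblasts that lie mainly in the outer coat of vessels and in fascia, called universal or adventitial fibroblasts, which also express Dpp4, Ly6c1, Cd34 and Clec3b and are regarded as a source of more specialised fibroblasts. In the mitral valve most fibroblasts are interstitial cells within the leaflet, which make its layers of collagen, proteoglycan and elastin.

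In K/B.g7 mice a transgenic T cell receptor, KRN, leads to arthritis and valve inflammation through autoantibodies, and the labels call their valves inflamed. B.g7 mice lack the transgene, and the labels call their valves control. Valves of both genotypes were taken at 3, 8 and 25 weeks, digested with collagenase 2 and DNase, and live single cells were sorted into 10x Genomics 3′ libraries, 1 for each genotype and age. How many mice went into each library is not stated in the labels. The p-values therefore measure the spread between these libraries only, and what is particular to 1 age cannot be told apart from what is particular to its libraries.

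Pi16 fibroblasts numbered 1437, 2129 and 3847 in K/B.g7 mice at 3, 8 and 25 weeks and 856, 374 and 1776 in the B.g7 libraries. They held between 2099811 and 12497057 UMIs per library, and their median depth was 4786, 4609 and 3056 UMIs per cell in K/B.g7 and 3656, 5741.5 and 6105.5 UMIs in B.g7. Other fibroblasts were shallower in each library, with medians between 2960 and 5749 UMIs. The sexes were mixed unevenly: Xist, the long noncoding RNA of the inactive X chromosome, had a UMI in 65.7, 61.2 and 25.9% of Pi16 fibroblasts of K/B.g7 and 31.8, 87.2 and 63.3% of those of B.g7. In other fibroblasts it had one in 43.1, 49.3 and 22.7% of cells of K/B.g7 and 34.8, 86.8 and 62.8% of B.g7. The mix thus also differed within libraries, most in K/B.g7 at 3 weeks. Libraries shared 6 of the barcode sequences of Pi16 fibroblasts. Below, levels are UMIs per 1000000 UMIs of the summed cells (CPM).

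Pi16 fibroblasts had 2998, 2465 and 2417 CPM of Pi16 in K/B.g7 mice at 3, 8 and 25 weeks and 2681, 1908 and 2306 CPM in B.g7, which follows from the threshold. The other fibroblasts were not free of it, with 494, 588 and 695 CPM in K/B.g7 and 578, 214 and 715 CPM in B.g7. The median count per Pi16 fibroblast was 10, 7 and 5 UMIs in K/B.g7 and 7, 7 and 9 UMIs in B.g7. Cells just inside the threshold, with 3 Pi16 UMIs and all other limits met, numbered 1760, and cells just outside it, with 2, numbered 2343. Clec3b, which encodes the plasminogen-binding protein tetranectin, was at a median over the 6 libraries of 929 CPM just inside and 877 CPM just outside. Pcolce2, an enhancer of procollagen processing, was at 395 CPM inside and 352 CPM outside. Ly6c1, a small surface protein of the Ly6 family, was at 147 CPM inside and 143 CPM outside, and Cd55, which protects cells from complement, at 153 and 142 CPM. Not all genes of universal fibroblasts leaned this way. Dpp4 was at 3.79 CPM inside and 4.22 CPM outside, and Dpt at 904 and 950 CPM. Cells just inside had the higher level in 5 of 6 libraries for Clec3b, 3 for Dpp4 and 1 for Dpt.

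The label was checked against Clec3b and Pcolce2, which the rule did not use. Clec3b was between 1152 and 1901 CPM (median 1294) in Pi16 fibroblasts and between 259 and 825 CPM (median 446) in other fibroblasts, and the ranges of the 6 libraries did not overlap. The log2 fold change within libraries was 1.59 ± 0.13 (SE; edgeR's quasi-likelihood test, Benjamini-Hochberg adjusted p = 1.63e-05). Pcolce2 was between 375 and 578 CPM (median 537) in Pi16 fibroblasts and between 255 and 444 CPM (median 302) in other fibroblasts, ranges that overlapped, but it was higher in Pi16 fibroblasts within each library (log2 fold change 0.75 ± 0.074 SE, edgeR adjusted p = 6.33e-05). At a common depth of 1000 UMIs, Clec3b had a UMI in between 58.0 and 75.1% of Pi16 fibroblasts and in between 16.9 and 48.6% of other fibroblasts. In barcodes chosen as leukocytes, which should lack it, the share was between 0 and 2.41%. Unthinned, at median depths from 3056 to 6105.5 UMIs in Pi16 fibroblasts and from 1534 to 4537.5 UMIs in leukocytes, the shares were between 80.5 and 94.7% and between 0 and 9.31%.

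The share of Pi16 fibroblasts in the fibroblast gate was 37.2, 36.9 and 28.4% in K/B.g7 mice at 3, 8 and 25 weeks and 31.0, 12.9 and 30.5% of the gate in B.g7. The B.g7 library at 8 weeks stood apart, with an exact binomial 95% interval of 11.7 to 14.1%, whereas the intervals of the other 5 lay between 27.7 and 38.7% and cover counting error only. The mean of 3 libraries was 34.2% ± 4.98 (SD) in K/B.g7 and that of the 3 in B.g7 was 24.8% ± 10.3 (SD), and an exact two-sided permutation test gave p = 0.3, where 0.1 is the smallest p that 3 against 3 libraries allow. Under this rule K/B.g7 had the higher share at 3 and 8 weeks. The order at 25 weeks changed with the setting. With cells thinned to 2000 UMIs, K/B.g7 stood at 25.9% against 24.9% for B.g7 at that age. A Pi16 threshold of 2 UMIs put K/B.g7 at 36.7% against 35.1% for B.g7. A threshold of 5 UMIs put K/B.g7 at 17.8% against 23.4%. Without the 8-week libraries the difference between the means under the main rule, 9.38 percentage points, shrank to 2.04. Among cells with an Xist UMI the means were 40.2% for K/B.g7 and 24.2% for B.g7, higher in K/B.g7 at all 3 ages (exact p = 0.1). Among cells with a Y-linked UMI and no Xist UMI they were 29.2% for K/B.g7 and 27.5% for B.g7 (exact p = 0.8), where the B.g7 value at 8 weeks rests on 60 cells.

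**Figure D1:**
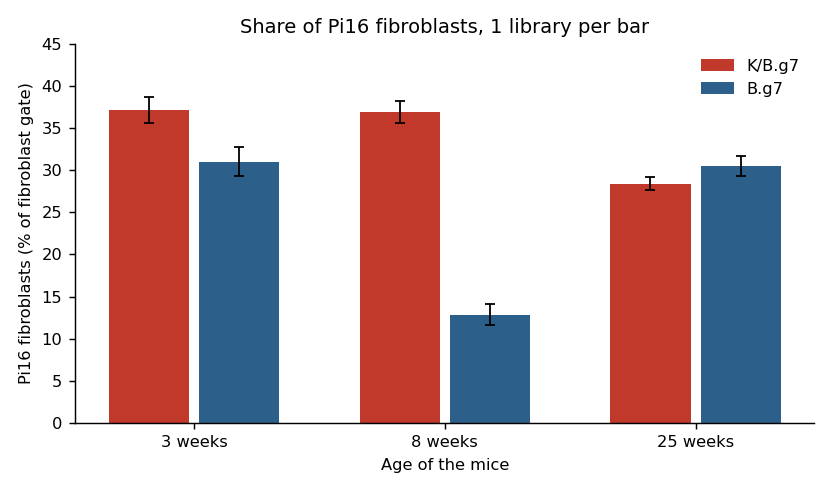
Share of Pi16 fibroblasts in the fibroblast gate (%, y axis) by age (x axis) in K/B.g7 (red) and B.g7 (blue), 1 library per bar, with exact binomial 95% intervals as error bars. The B.g7 library at 8 weeks is at 12.9%, and the other 5 libraries are between 28.4 and 37.2%.

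Pi16 fibroblasts had more of the universal fibroblast genes, and less of genes known from tendon and cartilage, than other fibroblasts. Of 12605 genes tested against other fibroblasts of the same library, 13.7% were higher and 13.8% lower in Pi16 fibroblasts (edgeR, adjusted p under 0.05). Of 24 measured genes of the universal adventitial fibroblast list, 18 were higher and 1 was lower, with a median log2 fold change of 0.99 against 0.00 over all genes. None of these genes was used to choose the cells, but a gene that moves with Pi16 or with a limit gene from cell to cell will differ through the choice. Among surface proteins, Ly6c1 was between 287 and 739.7 CPM (median 336) in Pi16 fibroblasts and between 56.8 and 289 CPM (median 73.4) in other fibroblasts (log2 fold change 2.10 ± 0.16 SE, edgeR adjusted p = 1.16e-05). The ranges touched because the K/B.g7 library at 8 weeks was the highest in both cell groups. Cd248, the collagen-binding receptor endosialin, was between 85.2 and 190.5 CPM (median 149) in Pi16 fibroblasts and between 15.3 and 52.9 CPM (median 37.2) in other fibroblasts, with no overlap (log2 fold change 2.07 ± 0.12 SE, edgeR adjusted p = 2.3e-06).

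Further surface proteins and receptors went the same way in all 6 libraries. Scara5, a ferritin receptor, was between 90.96 and 171 CPM (median 129) in Pi16 fibroblasts and between 14.7 and 75.8 CPM (median 32.6) in other fibroblasts (log2 fold change 1.88 ± 0.18 SE, edgeR adjusted p = 4.87e-05). Cd55 was between 199 and 442 CPM (median 305) in Pi16 fibroblasts and between 52.1 and 148 CPM (median 87.7) in other fibroblasts (log2 fold change 1.73 ± 0.10 SE, edgeR adjusted p = 2.38e-06). Ackr3, a scavenging receptor for the chemokine Cxcl12, was between 266 and 422 CPM (median 306) in Pi16 fibroblasts and between 73.6 and 130.2 CPM (median 119.5) in other fibroblasts (log2 fold change 1.58 ± 0.099 SE, edgeR adjusted p = 3.66e-06). For all 3 genes the lowest library of Pi16 fibroblasts was above the highest of other fibroblasts. Dpp4, a dipeptidyl peptidase of the cell surface, was low throughout, with between 10.5 and 29.1 CPM (median 20.4) in Pi16 fibroblasts and between 2.27 and 18.1 CPM (median 4.20) in other fibroblasts (log2 fold change 1.75 ± 0.32 SE, edgeR adjusted p = 0.00279). Its ranges overlapped through the B.g7 library at 25 weeks, where other fibroblasts had 18.1 CPM against 22.0 CPM in Pi16 fibroblasts. Procr, the protein C receptor, was the member of the universal list that was lower, at a median of 7.09 CPM in Pi16 fibroblasts and 17.7 CPM in other fibroblasts (log2 fold change -1.27 ± 0.14 SE, edgeR adjusted p = 0.000111).

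Sema3c, Pla1a, Mfap5 and Efhd1 were higher in Pi16 fibroblasts too. Sema3c, a secreted guidance cue, was between 94.8 and 273 CPM (median 175) in Pi16 fibroblasts and between 23.5 and 99.7 CPM (median 72.7) in other fibroblasts (log2 fold change 1.43 ± 0.13 SE, edgeR adjusted p = 4.15e-05). Pla1a, a phospholipase that acts on phosphatidylserine, was between 58.8 and 203 CPM (median 154) in Pi16 fibroblasts and between 16.3 and 111 CPM (median 41.8) in other fibroblasts (log2 fold change 1.61 ± 0.18 SE, edgeR adjusted p = 0.000128). The ranges of both genes overlapped between libraries, but within each library the Pi16 fibroblasts were higher. Mfap5, a glycoprotein of microfibrils, was between 1655 and 5288 CPM (median 2302) in Pi16 fibroblasts and between 766 and 1888 CPM (median 1349) in other fibroblasts (log2 fold change 1.06 ± 0.088 SE, edgeR adjusted p = 2.06e-05), with the 3-week libraries highest in both. Efhd1, a calcium-binding protein of mitochondria, did not overlap, with between 58.2 and 90.6 CPM (median 71.0) in Pi16 fibroblasts and between 9.74 and 27.2 CPM (median 14.9) in other fibroblasts (log2 fold change 2.21 ± 0.11 SE, edgeR adjusted p = 1.2e-06). Of the universal list, Wnt2, Dpt, Tnfaip6, Fn1 and Limch1 did not pass, with log2 fold changes of 0.31, -0.08, 0.14, 0.24 and -0.27.

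Scx, Fmod, Comp, Prg4 and Thbs1 were lower in Pi16 fibroblasts. Scx, the transcription factor scleraxis of tendon cells, was between 2.44 and 9.78 CPM (median 5.50) in Pi16 fibroblasts and between 34.4 and 240.5 CPM (median 78.3) in other fibroblasts (log2 fold change -4.09 ± 0.16 SE, edgeR adjusted p = 3.41e-07). Fmod, the collagen-binding proteoglycan fibromodulin, was between 9.68 and 30.4 CPM (median 19.9) in Pi16 fibroblasts and between 129.9 and 587 CPM (median 366) in other fibroblasts (log2 fold change -4.07 ± 0.22 SE, edgeR adjusted p = 1.74e-06). Comp, a pentameric cartilage matrix protein, was between 39.8 and 149 CPM (median 112) in Pi16 fibroblasts and between 347 and 1508 CPM (median 776) in other fibroblasts (log2 fold change -2.98 ± 0.39 SE, edgeR adjusted p = 0.000367). None of these ranges overlapped. Prg4, the lubricin of joint surfaces, was between 75.4 and 289.7 CPM (median 166) in Pi16 fibroblasts and between 505 and 2097 CPM (median 954.97) in other fibroblasts (log2 fold change -2.60 ± 0.24 SE, edgeR adjusted p = 4.27e-05). Thbs1, a matricellular protein that can activate latent TGF-beta, was between 92.7 and 252 CPM (median 182) in Pi16 fibroblasts and between 369 and 1134 CPM (median 603) in other fibroblasts (log2 fold change -1.85 ± 0.20 SE, edgeR adjusted p = 0.000112). Both were lower in Pi16 fibroblasts in all 6 libraries without overlap. The valve interstitial list had 0 higher and 7 lower of 8 genes tested (median -1.90), and the chondrogenic and osteogenic list 0 higher and 7 lower of 9 (median -2.98). Cells turned away by the limits on Wif1, Chad, Cilp, Thbs4 and Col8a1 stand among the other fibroblasts. Cells with 2 Pi16 UMIs that met all other limits, also among them, had lower medians than that whole group. These were 51.6 CPM of Fmod, 168 CPM of Comp and 228 CPM of Prg4. How much of the deficit the limits give was not tested.

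**Figure D2:**
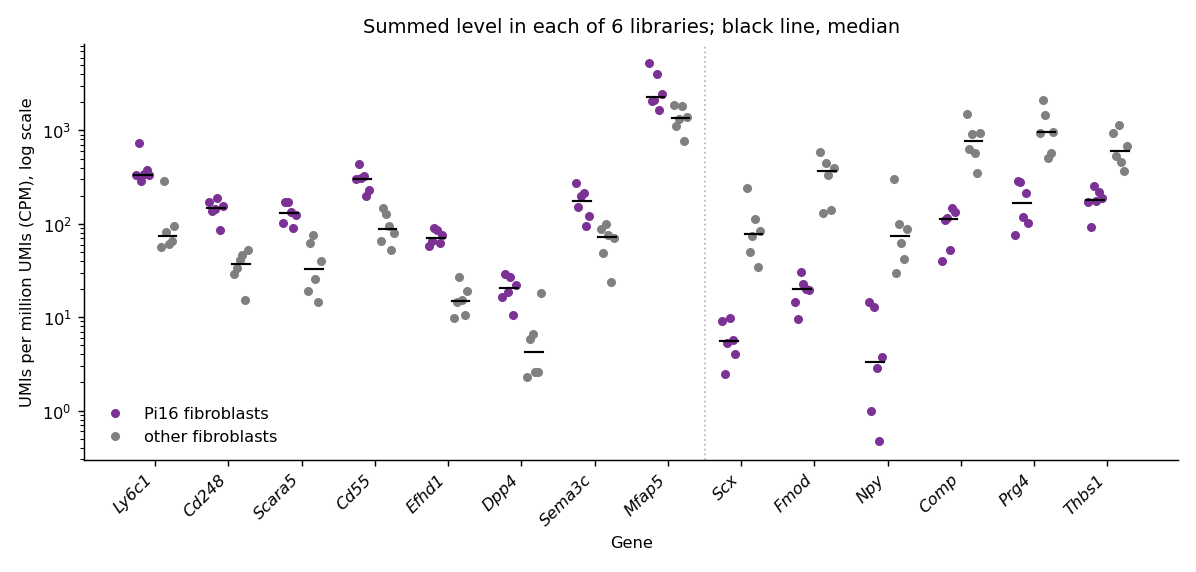
Summed level (CPM, log scale, y axis) of 14 genes (x axis) in Pi16 fibroblasts (purple) and other fibroblasts (grey), 1 point for each of 6 libraries and a black line at the median. Left of the dotted line the Pi16 fibroblasts are higher, as for Cd248 (medians 149 and 37.2 CPM), and right of it lower, as for Scx (medians 5.50 and 78.3 CPM).

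Matrix genes did not move as 1 block. Of 20 elastic fibre and microfibril genes 10 were higher and 4 lower in Pi16 fibroblasts. Fbn1, the main microfibril protein, was between 284 and 1127 CPM (median 616) in Pi16 fibroblasts and between 166 and 571 CPM (median 393) in other fibroblasts (log2 fold change 0.86 ± 0.073 SE, edgeR adjusted p = 2.16e-05), and Fbln2, fibulin 2, was between 568 and 801 CPM (median 668) in Pi16 fibroblasts and between 193 and 489 CPM (median 391.7) in other fibroblasts (log2 fold change 1.04 ± 0.11 SE, edgeR adjusted p = 7.76e-05). Both were higher in each library, with overlap for Fbn1 and none for Fbln2. The 4 that were lower were Fbn2, Emilin1, Fbln5 and Ltbp2. Basement membrane genes were higher in 7 and lower in 1 of 13, collagen processing genes higher in 6 and lower in 1 of 14, and proteoglycan and hyaluronan genes higher in 5 and lower in 9 of 19. Of 18 BMP and TGF-beta pathway genes 2 were higher and 11 lower, the TGF-beta and BMP target genes Id1, Id3, Smad6 and Smad7 among them, and of 16 Wnt pathway genes 1 was higher (Fzd4, a Wnt receptor) and 8 were lower, among them Axin2 and Nkd1. Of 12 myofibroblast genes 1 was higher and 7 lower, and all 6 genes tested of MHC class II, which presents antigen to helper T cells, were lower (median -2.02).

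Markers of other cell types were compared in the same sums. Mural and smooth muscle markers were lower in 6 and higher in 1 of 9, mesothelial markers lower in 4 of 9, and immediate early and dissociation genes lower in 8 and higher in 1 of 18. Cardiomyocyte markers went the other way, higher in 6 and lower in 1 of 10, and summed to between 39.7 and 99.7 CPM in Pi16 fibroblasts and between 34.5 and 73.7 CPM in other fibroblasts. The summed macrophage markers were between 6.39 and 45.3 CPM in Pi16 fibroblasts and between 16.04 and 59.1 CPM in other fibroblasts. Summed mesothelial markers did not go 1 way in all libraries. In B.g7 at 8 weeks they were 191 CPM in Pi16 fibroblasts and 55.4 CPM in other fibroblasts. In B.g7 at 25 weeks they were 88.4 CPM in Pi16 fibroblasts and 475 CPM in other fibroblasts. Igkc, the 1 immunoglobulin gene tested, was higher (log2 fold change 0.99). Summed immunoglobulin genes were between 0.315 and 325 CPM in Pi16 fibroblasts and between 0.284 and 131 CPM in other fibroblasts. The K/B.g7 library at 8 weeks was highest in both. The part of these markers in the differences above was not tested.

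The nearest neighbours compared met the same limits, had no Pi16 UMI and had at least 3 UMIs of Smoc2, Lpl and Col15a1 together. These cells numbered 3655 and are called Smoc2 fibroblasts here. The Pi16 fibroblasts were not separate from them in those genes: between 75.4 and 90.9% also had at least 3 such UMIs, and Smoc2, a matricellular protein, was between 529.5 and 745 CPM (median 558) in Pi16 fibroblasts and between 371 and 803 CPM (median 688) in Smoc2 fibroblasts. Of 10371 genes tested 10.2% were higher and 8.87% lower in Pi16 fibroblasts. Against this neighbour 20 of 23 universal genes were higher and 0 lower (median 1.25). Of 6 valve interstitial genes tested 3 were lower (Cnmd, Tbx20 and Fmod), with a median of -0.34. Prg4, lower than in other fibroblasts, was higher than in Smoc2 fibroblasts, and Comp was not called lower. Sema3c was between 94.8 and 273 CPM (median 175) in Pi16 fibroblasts and between 14.5 and 42.6 CPM (median 22.4) in Smoc2 fibroblasts (log2 fold change 2.67 ± 0.11 SE, edgeR adjusted p = 2.34e-08). Nbl1, a secreted BMP antagonist, was between 284 and 498 CPM (median 448) in Pi16 fibroblasts and between 69.8 and 161 CPM (median 106) in Smoc2 fibroblasts (log2 fold change 1.99 ± 0.075 SE, edgeR adjusted p = 1.3e-08). Tmem100, a membrane protein of BMP signalling, was between 118 and 278 CPM (median 204) in Pi16 fibroblasts and between 11.9 and 44.7 CPM (median 32.8) in Smoc2 fibroblasts (log2 fold change 2.67 ± 0.13 SE, edgeR adjusted p = 6.49e-08). None of the 3 overlapped between the groups.

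Smoc2 fibroblasts in turn had more Apoe, Apod and chemokine transcripts. Apoe, the lipid carrier apolipoprotein E, was between 3143 and 7640.2 CPM (median 4330.2) in Pi16 fibroblasts and between 7674 and 26954 CPM (median 15161) in Smoc2 fibroblasts (log2 fold change -1.61 ± 0.11 SE, edgeR adjusted p = 1.87e-06). Apod, a lipocalin, was between 14.6 and 93.1 CPM (median 52.1) in Pi16 fibroblasts and between 144 and 904 CPM (median 284) in Smoc2 fibroblasts (log2 fold change -2.71 ± 0.49 SE, edgeR adjusted p = 0.00204). C4b, complement component 4, was between 7.57 and 226 CPM (median 54.0) in Pi16 fibroblasts and between 104 and 543 CPM (median 183) in Smoc2 fibroblasts (log2 fold change -1.94 ± 0.21 SE, edgeR adjusted p = 5.37e-05). All 3 were lower in Pi16 fibroblasts in each library, and the ranges overlapped for C4b alone. Ccl11, the eosinophil attractant eotaxin, was between 20.2 and 190.0 CPM (median 92.7) in Pi16 fibroblasts and between 81.0 and 642 CPM (median 234) in Smoc2 fibroblasts (log2 fold change -1.77 ± 0.48 SE, edgeR adjusted p = 0.0215), lower in Pi16 fibroblasts in 5 of 6 libraries. By list, 9 of 12 chemokine genes, 10 of 12 MHC class I genes, 8 of 16 cytokine and receptor genes and 9 of 18 immediate early genes were lower in Pi16 fibroblasts, while Il33, Il18 and the immediate early gene Ier3 were higher. The MHC class I differences were small, with a median of -0.37.

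The Wif1 fibroblasts, 1914 cells of the gate with at least 3 UMIs of Wif1, a secreted Wnt inhibitor of the valve interstitium, and none of Pi16 or Chad, were the more distant neighbour. Of 10162 genes 18.1% were higher and 18.8% lower in Pi16 fibroblasts. Basement membrane genes were higher in 12 and lower in 0 of 13 (median 2.09), and collagen processing genes higher in 11 and lower in 1 of 13. Against the Smoc2 fibroblasts, basement membrane genes were higher in 2 and lower in 3 of 12 (median -0.08). Collagen processing genes were higher in 4 and lower in 0 of 13 there. Clec3b was between 1152 and 1901 CPM (median 1294) in Pi16 fibroblasts and between 11.2 and 74.9 CPM (median 23.5) in Wif1 fibroblasts (log2 fold change 5.54 ± 0.29 SE, edgeR adjusted p = 3.19e-08). Smoc2 was between 529.5 and 745 CPM (median 558) in Pi16 fibroblasts and between 5.29 and 29.95 CPM (median 14.3) in Wif1 fibroblasts (log2 fold change 5.41 ± 0.27 SE, edgeR adjusted p = 2.26e-08). In the other direction, Rspo3, a secreted activator of Wnt signalling, was between 2.41 and 8.62 CPM (median 5.65) in Pi16 fibroblasts and between 130.4 and 288 CPM (median 178) in Wif1 fibroblasts (log2 fold change -5.01 ± 0.19 SE, edgeR adjusted p = 2.68e-09). None of the 3 overlapped.

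Among the Pi16 fibroblasts themselves, most other universal genes were higher in cells of higher Pi16 content. The cells were grouped by their Pi16 UMIs per 10000 UMIs into 1991 cells under 10, 4861 cells from 10 to 25 and 3567 cells at 25 or more. Of 21 universal genes that reached 20 CPM, 19 were higher at 25 or more than under 10 in all 6 libraries, against 12.2% of 5616 genes at that level. Pi16 chose the cells, so this is a description with no test. Sema3c had a median over libraries of 337 CPM at 25 or more, 108 CPM from 10 to 25 and 72.9 CPM under 10. Cd55 had 495, 216 and 137 CPM in the same order, and Dpp4 43.2, 13.2 and 6.53 CPM. Sema3c and Cd55 did not overlap between the groups of highest and lowest content, and neither did Dpp4. Elastic fibre genes were higher at 25 or more in 11 and lower in 1 of 19.

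Other lists ran against Pi16 content. Immediate early and dissociation genes were lower at 25 or more in 14 and higher in 0 of 18, against 7.48% of all genes lower, as for Fos (median 3360 CPM at 25 or more and 4210.2 CPM under 10). Chemokine genes were lower in 5 of 10, Cxcl12 and Ccl2 among them, and adipogenic progenitor genes lower in 4 of 6. Penk, the enkephalin precursor, had a median of 46.2 CPM at 25 or more and 84.2 CPM under 10. Hsd11b1, which regenerates active glucocorticoid within cells, had 40.5 CPM at 25 or more and 65.1 CPM under 10, but was no lower in the B.g7 library at 8 weeks. Col15a1, a basement membrane collagen, had no single direction. Cells under 10 were deeper, with library medians of 4016 to 6414.5 UMIs against 2895 to 5933 UMIs at 25 or more. This follows in part from the rule, since a shallow cell with at least 3 Pi16 UMIs cannot fall under 10.

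**Figure D3:**
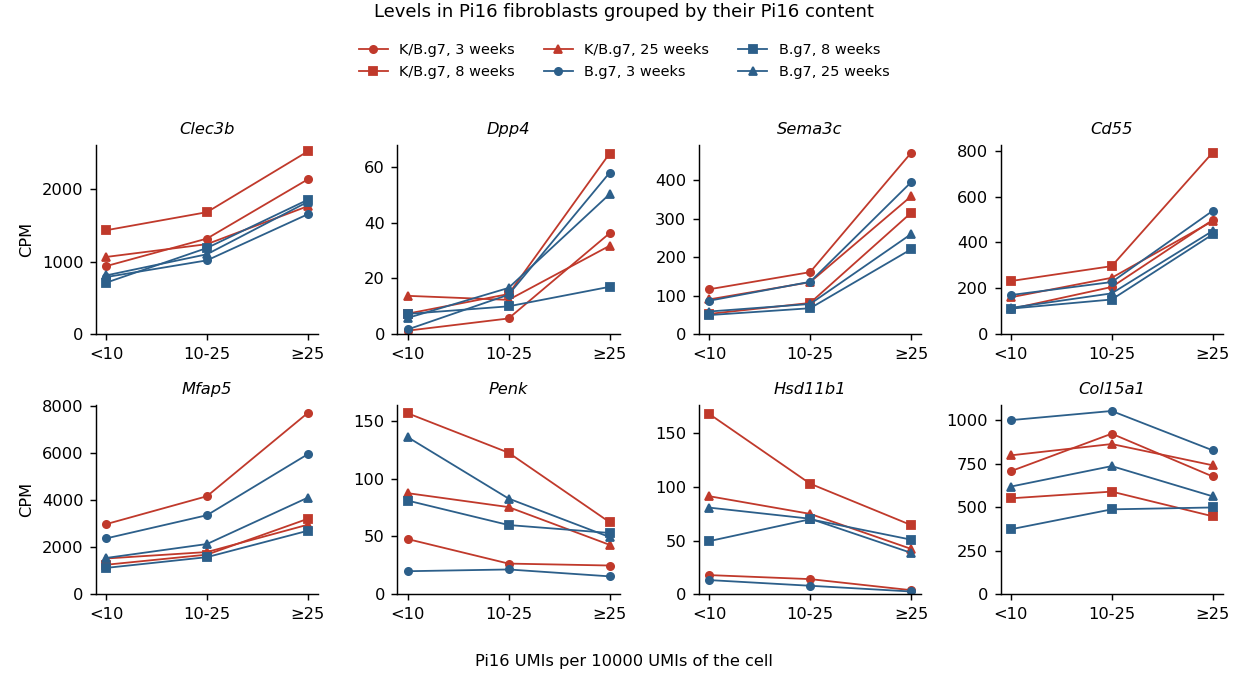
Level (CPM, y axis) of 8 genes in Pi16 fibroblasts grouped by Pi16 UMIs per 10000 UMIs of the cell (x axis), 1 line per library, K/B.g7 in red and B.g7 in blue, with circles, squares and triangles for 3, 8 and 25 weeks. Clec3b, Dpp4, Sema3c, Cd55 and Mfap5 are highest at 25 or more in all 6 libraries, whereas Penk is lower there than under 10 in all 6 and Col15a1 has no single direction.

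In Pi16 fibroblasts some elastic fibre, fibrillar collagen and collagen processing genes fell at 8 against 3 weeks, and some complement, chemokine, MHC class I and interferon genes rose, in the counts given with each list. Age was tested with genotype in the model, so each age had 1 library of each genotype. Of 12179 genes 3.46% were higher and 2.11% lower at 8 than at 3 weeks, and 2.76% were higher and 1.06% lower at 25 than at 3 weeks. The 2 comparisons share the 3-week libraries. Between 8 and 25 weeks 1 gene (0.00821%) was higher and 3 genes (0.0246%) were lower at 25 weeks. By DESeq2 that comparison called 23. Of the 12179 genes, 563 had an unadjusted edgeR p under 0.05. A share of about 0.05 of genes falls under that threshold where nothing differs, which holds for the unadjusted counts below as well.

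Eln, which encodes elastin, had 3209, 109.8 and 333 CPM in K/B.g7 mice at 3, 8 and 25 weeks and 1047, 84.8 and 303 CPM in B.g7. The 3-week libraries of both genotypes were highest and the 8-week libraries lowest. Its log2 fold change was -4.29 ± 0.40 at 8 against 3 weeks (SE, edgeR adjusted p = 0.000112) and -2.56 ± 0.37 at 25 against 3 weeks (edgeR adjusted p = 0.00353). Sparc, a collagen-binding matricellular protein, had 15459.8, 2097 and 2792 CPM in K/B.g7 and 12272, 1986 and 4271 CPM in B.g7, the same order of ages (log2 fold change -2.73 ± 0.33 SE, edgeR adjusted p = 0.000541 at 8 against 3 weeks). Col3a1, the chain of type III collagen, had 11313, 1880.1 and 2753 CPM in K/B.g7 and 7793, 1969 and 3181 CPM in B.g7 (log2 fold change -2.26 ± 0.32 SE, edgeR adjusted p = 0.00111). Its 3-week values were the highest in both genotypes. Cthrc1, a secreted protein of matrix-producing fibroblasts, had 115, 1.66 and 2.08 CPM in K/B.g7 and 43.5, 1.43 and 3.45 CPM in B.g7 (log2 fold change -5.71 ± 0.51 SE, edgeR adjusted p = 8.31e-05). In both genotypes it was far lower at 8 and 25 weeks than at 3.

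By list, at 8 against 3 weeks 8 of 20 elastic fibre genes fell and 1 (Efemp1) rose, 6 of 11 fibrillar and beaded collagen genes fell, 6 of 14 collagen processing genes fell and 5 of 11 myofibroblast genes fell. Of the other matrix lists, 1 of 13 basement membrane genes (Sparc), 2 of 18 proteoglycan and hyaluronan genes (Aspn and Gpc3) and 1 of 16 matrix protease and inhibitor genes (Ctsk) fell, and 0 rose. Of 16 proliferation genes 9 fell and 1, Pcna, rose. Summed over the list, they were 396, 79.9 and 97.4 CPM in K/B.g7 mice at 3, 8 and 25 weeks and 113, 80.0 and 102 CPM in B.g7. The fall in the sum was thus mostly that of K/B.g7. Stmn1, a microtubule regulator of dividing cells, had 111, 10.1 and 11.2 CPM in K/B.g7 and 22.7, 8.57 and 14.9 CPM in B.g7 (log2 fold change -2.77 ± 0.53 SE, edgeR adjusted p = 0.00837), and the K/B.g7 library at 3 weeks stood above all others. Lox, which cross-links collagen and elastin, had 190.2, 19.1 and 30.4 CPM in K/B.g7 and 29.3, 13.3 and 63.6 CPM in B.g7 (log2 fold change -2.62 ± 0.66 SE, edgeR adjusted p = 0.0354). Its high value too was the K/B.g7 library at 3 weeks, and DESeq2 called neither Lox nor Stmn1. At 25 against 3 weeks 4 elastic fibre genes had fallen, namely Eln, Fbn2, Mfap2 and Mfap4, and of 16 proliferation genes 4 had fallen and 1, Pcna, had risen.

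Most genes of the universal list did not pass between ages. Of 24 universal genes 4 fell at 8 against 3 weeks (Sema3c, Wnt2, Mfap5 and Fn1), 2 at 25 against 3 weeks (Wnt2 and Cmah), and 0 rose. These shares stand beside 2.11% and 1.06% lower over all genes. At 25 against 3 weeks 6 of the 24 had fitted values above 0, with a median of -0.31 against 0.01 over all genes tested. The log2 fold change of Clec3b at 25 against 3 weeks was -0.05 ± 0.26 (SE; edgeR adjusted p = 0.927) and that of Dpp4 was -0.03 ± 0.34 (edgeR adjusted p = 0.974).

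Enzymes were among the named genes that rose at 25 against 3 weeks. Inmt, which methylates indole amines, had 5.40, 102 and 91.1 CPM in K/B.g7 and 2.52, 120.0 and 128 CPM in B.g7 (log2 fold change 4.62 ± 0.35 SE, edgeR adjusted p = 9.37e-05 at 25 against 3 weeks). Hsd11b1 had 11.1, 106 and 67.1 CPM in K/B.g7 and 7.25, 57.6 and 65.3 CPM in B.g7 (log2 fold change 2.88 ± 0.27 SE, edgeR adjusted p = 0.000256). Ces1d, a carboxylesterase, had 9.09, 65.5 and 51.9 CPM in K/B.g7 and 10.4, 51.0 and 41.3 CPM in B.g7 (log2 fold change 2.29 ± 0.24 SE, edgeR adjusted p = 0.000565). In all 3 the 3-week libraries were below every later one. Tslp, an epithelial- and stroma-derived cytokine, had 6.53, 36.5 and 40.4 CPM in K/B.g7 and 8.52, 53.3 and 32.5 CPM in B.g7 (log2 fold change 2.32 ± 0.28 SE, edgeR adjusted p = 0.00127), with the same order.

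**Figure D4:**
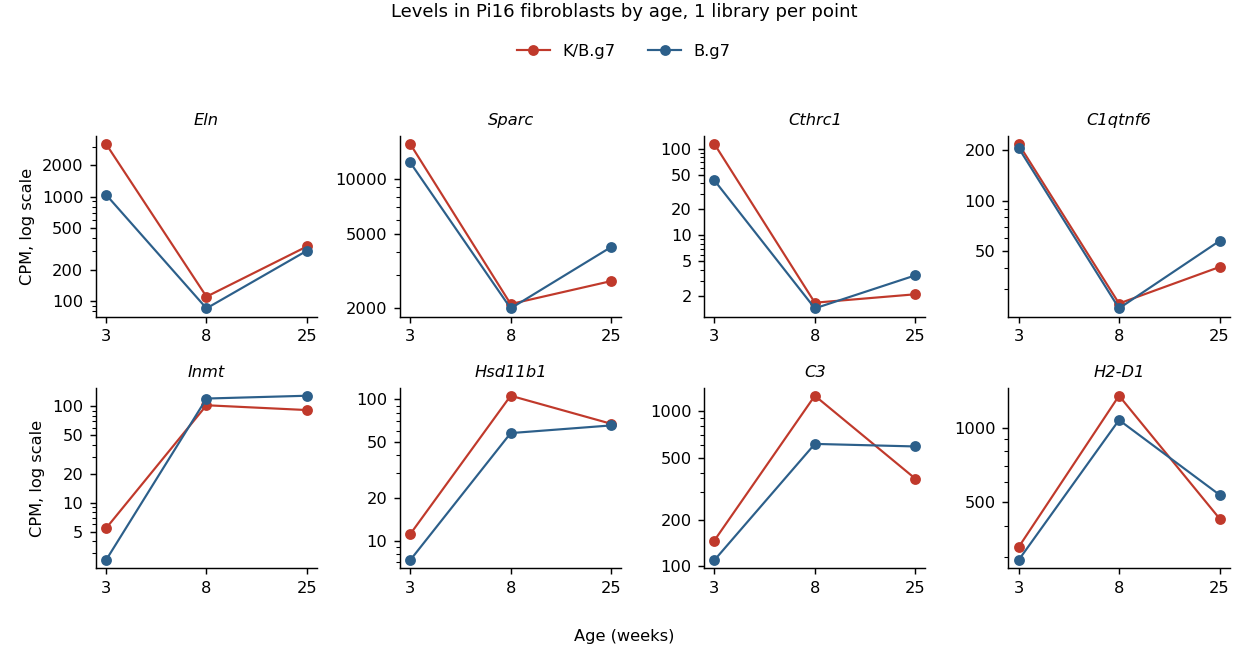
Level (CPM, log scale, y axis) of 8 genes in Pi16 fibroblasts at 3, 8 and 25 weeks (x axis) in K/B.g7 (red) and B.g7 (blue), 1 library per point. Eln, Sparc, Cthrc1 and C1qtnf6 are highest at 3 weeks in both genotypes, Inmt and Hsd11b1 lowest at 3 weeks, and H2-D1 highest at 8 weeks.

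Of the complement list 7 of 12 genes rose at 8 against 3 weeks, and of the chemokine list 7 of 14, with 0 falling in either. C3, the central complement component, had 146, 1251 and 366 CPM in K/B.g7 mice at 3, 8 and 25 weeks and 109, 613 and 590.2 CPM in B.g7 (log2 fold change 2.87 ± 0.37 SE, edgeR adjusted p = 0.000683 at 8 against 3 weeks). Serpina3n, a secreted protease inhibitor induced in inflammation, had 19.2, 241 and 59.6 CPM in K/B.g7 and 13.9, 76.2 and 35.0 CPM in B.g7 (log2 fold change 3.18 ± 0.29 SE, edgeR adjusted p = 9.03e-05). Both genotypes were lowest at 3 weeks, and at 8 weeks K/B.g7 was the higher of the 2. Ccl11 had 27.3, 190.0 and 84.2 CPM in K/B.g7 and 20.2, 135 and 101 CPM in B.g7 (log2 fold change 2.80 ± 0.27 SE, edgeR adjusted p = 0.000119). Cxcl14, a chemokine made by fibroblasts and epithelia, had 35.8, 791 and 310.3 CPM in K/B.g7 and 54.2, 170.5 and 239 CPM in B.g7 (log2 fold change 3.22 ± 0.49 SE, edgeR adjusted p = 0.00222). Fitted values were above 0 in 12 of the 12 complement genes and 11 of the 14 chemokine genes. At 25 against 3 weeks 3 of 12 complement genes rose, and 4 chemokine genes rose and 1 (Cxcl2) fell.

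H2-D1, a heavy chain of MHC class I, which shows peptides to cytotoxic T cells, had 328, 1345 and 428 CPM in K/B.g7 and 290.5, 1072 and 534 CPM in B.g7 (log2 fold change 2.01 ± 0.27 SE, edgeR adjusted p = 0.000887 at 8 against 3 weeks). B2m, the light chain, had 307, 962 and 505 CPM in K/B.g7 and 326, 854 and 457 CPM in B.g7 (log2 fold change 1.56 ± 0.24 SE, edgeR adjusted p = 0.00232). The 8-week libraries were the highest in each genotype for both genes. Psmb9, a subunit of the immunoproteasome, had 9.23, 56.2 and 19.3 CPM in K/B.g7 and 4.42, 33.3 and 18.8 CPM in B.g7 (log2 fold change 2.70 ± 0.29 SE, edgeR adjusted p = 0.000229). Of 12 MHC class I genes 9 rose at 8 against 3 weeks and 0 fell, and 2 rose at 25 against 3 weeks, Psmb9 and H2-T23. Of 13 type I interferon genes 8 rose and of 14 interferon-gamma genes 7 rose, with 0 falling in either list. Isg15, a ubiquitin-like protein induced by interferon, had 5.97, 33.5 and 36.9 CPM in K/B.g7 and 3.47, 27.1 and 17.2 CPM in B.g7 (log2 fold change 2.70 ± 0.30 SE, edgeR adjusted p = 0.000238). Ifit1, which binds foreign RNA, had 3.69, 24.4 and 14.96 CPM in K/B.g7 and 3.15, 13.8 and 10.4 CPM in B.g7 (log2 fold change 2.54 ± 0.30 SE, edgeR adjusted p = 0.000386). Both were lowest at 3 weeks in each genotype.

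Promoter sequences are shown for 5 of these genes, since type I interferon is known to act on target promoters through the interferon-stimulated response element. The core of that element was searched on both strands as a pair of GAAA letters with any 2 bases between them (a pair of TTTC on the other strand), in windows from 250 bases before to 50 after each start (RefSeq, GRCm38.p6). It was in 1131 of 32851 windows, or 3.44%, in 6 of 12 windows of the type I interferon list (6 of 11 genes matched), in 7 of 15 windows of the interferon-gamma list, in 2 of 12 of the MHC class I list and in 1 of 25 of the universal list. Of the 8 type I interferon genes that rose at 8 weeks, Isg15, Ifit1, Ifit3 and Bst2 held the core, and no core was found in the windows of Oasl2, Irf7 and Xaf1. The other one, Rtp4, was not matched. The 5 genes whose sequences are printed all hold the core, whereas no core was found in the windows of H2-D1 and Psmb9. Bst2, the membrane tether of budding viruses, had 94.3, 197 and 121 CPM in K/B.g7 and 92.7, 179.5 and 134 CPM in B.g7 (log2 fold change 1.05 ± 0.22 SE, edgeR adjusted p = 0.0146). Ifit3, a partner of Ifit1, had 9.52, 39.1 and 21.0 CPM in K/B.g7 and 15.5, 23.3 and 17.1 CPM in B.g7 (log2 fold change 1.44 ± 0.29 SE, edgeR adjusted p = 0.0122). The 250 bases before each start are printed 5′ to 3′ on the strand of the gene, with each core in capitals. A match describes letters and is not evidence of binding. The windows lie at chr4:156200819-156201068 on the minus strand for Isg15, where 3 cores overlap, at chr19:34640639-34640888 on the plus strand for Ifit1, at chr19:34583279-34583528 on the plus strand for Ifit3, at chr8:71537473-71537722 on the minus strand for Bst2, where 2 cores overlap, and at chr2:122147437-122147686 on the plus strand for B2m.
Isg15: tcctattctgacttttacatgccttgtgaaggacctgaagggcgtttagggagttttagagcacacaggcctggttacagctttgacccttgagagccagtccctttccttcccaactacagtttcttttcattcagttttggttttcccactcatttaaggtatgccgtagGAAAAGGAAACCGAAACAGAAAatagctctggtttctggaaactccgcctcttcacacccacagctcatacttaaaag
Ifit1: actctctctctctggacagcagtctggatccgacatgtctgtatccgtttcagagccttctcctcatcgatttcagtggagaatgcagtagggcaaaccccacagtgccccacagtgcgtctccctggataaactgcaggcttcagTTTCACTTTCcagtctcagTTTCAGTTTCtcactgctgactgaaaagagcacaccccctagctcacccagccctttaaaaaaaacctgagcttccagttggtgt
Ifit3: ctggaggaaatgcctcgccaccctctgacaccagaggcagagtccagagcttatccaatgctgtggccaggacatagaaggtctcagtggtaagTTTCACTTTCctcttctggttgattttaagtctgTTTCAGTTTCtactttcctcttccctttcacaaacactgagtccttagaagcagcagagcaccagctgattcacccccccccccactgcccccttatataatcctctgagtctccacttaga
Bst2: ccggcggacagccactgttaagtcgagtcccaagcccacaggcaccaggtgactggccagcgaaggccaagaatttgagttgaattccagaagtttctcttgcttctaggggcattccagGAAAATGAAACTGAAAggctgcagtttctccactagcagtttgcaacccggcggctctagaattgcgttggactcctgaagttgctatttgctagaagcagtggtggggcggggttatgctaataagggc
B2m: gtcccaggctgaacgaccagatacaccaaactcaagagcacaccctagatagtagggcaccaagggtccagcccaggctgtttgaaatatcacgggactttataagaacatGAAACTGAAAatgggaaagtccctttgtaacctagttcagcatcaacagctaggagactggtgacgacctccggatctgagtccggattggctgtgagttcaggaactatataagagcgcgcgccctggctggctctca

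Transcripts of other cell types also differed with age in the summed Pi16 fibroblasts. MHC class II genes, which macrophages and B cells express most, rose in 4 of 5 at 8 against 3 weeks, and Cd74, the invariant chain, had 1.28, 59.9 and 18.6 CPM in K/B.g7 and 0.946, 8.10 and 8.16 CPM in B.g7. Summed macrophage markers were 6.39, 45.3 and 14.5 CPM in K/B.g7 mice at 3, 8 and 25 weeks and 15.1, 9.52 and 7.62 CPM in B.g7, and summed immunoglobulin genes were 0.426, 325 and 13.9 CPM in K/B.g7 and 0.315, 5.24 and 7.62 CPM in B.g7. The K/B.g7 library at 8 weeks was thus the highest in both. Summed mesothelial markers were 2.56, 39.6 and 59.1 CPM in K/B.g7 and 1.26, 191 and 88.4 CPM in B.g7, and 6 of 9 such genes rose at 25 against 3 weeks. The part of these transcripts in the age differences was not tested.

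The age differences were not shown to be particular to Pi16 fibroblasts. In the other fibroblasts the log2 fold change at 8 against 3 weeks was -3.44 ± 0.36 for Eln (SE; edgeR adjusted p = 0.00407) and 3.31 ± 0.68 for C3 (edgeR adjusted p = 0.0363), on the side seen in Pi16 fibroblasts. A test of whether the change from 3 to 25 weeks differed between Pi16 and other fibroblasts called 1 of 12605 genes (0.00793%), Apod; 772 genes had an unadjusted p under 0.05. Apod had 14.6, 93.1 and 52.3 CPM in K/B.g7 and 19.2, 65.2 and 52.0 CPM in B.g7 in Pi16 fibroblasts, where it was lowest at 3 weeks. In other fibroblasts it had 146, 141 and 85.6 CPM in K/B.g7 and 118, 70.3 and 59.3 CPM in B.g7 and was highest at 3 weeks. The difference between the 2 changes was 2.52 ± 0.13 on the log2 scale (SE; edgeR adjusted p = 0.00063).

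The 4 genes called between 25 and 8 weeks lay near or below 50 CPM and were named after their values were seen. With a Pi16 threshold of 2 UMIs Npy, Ifitm1 and H2-Q6 did not pass (edgeR adjusted p = 0.518, 0.0596 and 0.0735), nor did Npy with 5 UMIs (edgeR adjusted p = 0.0532). Npy, the peptide neuropeptide Y, was higher at 25 weeks (log2 fold change 3.67 ± 0.47 SE, edgeR adjusted p = 0.0129), with 14.6, 0.977 and 12.8 CPM in K/B.g7 and 2.84, 0.476 and 3.72 CPM in B.g7. Ifitm1, an antiviral membrane protein, was lower (log2 fold change -2.06 ± 0.25 SE, edgeR adjusted p = 0.0115), with 3.13, 37.2 and 6.88 CPM in K/B.g7 and 4.42, 51.9 and 16.4 CPM in B.g7. Eef1a2, a translation elongation factor, was lower (log2 fold change -2.31 ± 0.28 SE, edgeR adjusted p = 0.0115), with 1.99, 42.3 and 9.602 CPM in K/B.g7 and 0.315, 34.3 and 6.17 CPM in B.g7. H2-Q6, a nonclassical MHC class I gene with near-identical relatives among which reads may be split, was the fourth (log2 fold change -2.78 ± 0.41 SE, edgeR adjusted p = 0.0443), with 2.13, 26.0 and 2.24 CPM in K/B.g7 and 0.631, 11.0 and 3.08 CPM in B.g7.

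Between the genotypes, few genes of Pi16 fibroblasts differed at all ages alike. With age as a block and the 3 ages as replicates, 4 of 12179 genes (0.0328%) were higher and 1 (0.00821%) was lower in K/B.g7, and 842 had an unadjusted p under 0.05. Gstp1, a glutathione S-transferase that detoxifies reactive compounds, lies at chr19:4035407-4037985 on the minus strand (mm10). It had 118, 230.0 and 209.8 CPM in K/B.g7 mice at 3, 8 and 25 weeks and 36.9, 79.5 and 73.2 CPM in B.g7, higher in K/B.g7 at each age and without overlap (log2 fold change 1.52 ± 0.18 SE, edgeR adjusted p = 0.0222). Its neighbour Gstp2, at chr19:4040285-4046023 on the same strand, had 6.39, 31.1 and 19.7 CPM in K/B.g7 and 3.15, 6.67 and 4.81 CPM in B.g7 (log2 fold change 1.82 ± 0.25 SE, edgeR adjusted p = 0.0227). The 2 genes are near-identical copies between which reads may be split, so the value of each is uncertain. Gstp1 was called in the other fibroblasts as well (log2 fold change 1.45 ± 0.17 SE, edgeR adjusted p = 0.0497), and the difference between the 2 genotype effects was 0.08 ± 0.095 and did not pass (SE; edgeR adjusted p = 0.972).

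Myoc, which encodes the secreted protein myocilin, lies at chr1:162639155-162649693 on the plus strand. It had 78.1, 212 and 133 CPM in K/B.g7 and 187, 465 and 309 CPM in B.g7, lower in K/B.g7 at each age although the ranges overlapped across ages (log2 fold change -1.25 ± 0.19 SE, edgeR adjusted p = 0.0382). In other fibroblasts it did not pass (log2 fold change -0.91 ± 0.25 SE, edgeR adjusted p = 0.483), and the difference between the cell groups was -0.32 ± 0.19 (SE; edgeR adjusted p = 0.949). Myoc did not pass in Pi16 fibroblasts without the 25-week libraries (edgeR adjusted p = 0.0696) or with a Pi16 threshold of 2 UMIs (edgeR adjusted p = 0.0785).

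Rgs5 and Cenpf were at low levels and, like Gstp2, were named after their values were seen. Rgs5, a regulator of G protein signalling typical of pericytes, had 11.8, 12.4 and 22.0 CPM in K/B.g7 and 4.42, 1.90 and 4.90 CPM in B.g7 (log2 fold change 1.98 ± 0.26 SE, edgeR adjusted p = 0.0227). With predicted doublets left out it did not pass (edgeR adjusted p = 0.136). Mural and smooth muscle markers, Rgs5 included, summed to 141, 145 and 188 CPM in K/B.g7 and 79.2, 118 and 124 CPM in B.g7, and their part was not tested. Cenpf, a kinetochore protein of dividing cells, had 23.2, 0.880 and 6.16 CPM in K/B.g7 and 3.78, 0.476 and 0.907 CPM in B.g7 (log2 fold change 2.57 ± 0.35 SE, edgeR adjusted p = 0.0227), led by the K/B.g7 library at 3 weeks. Without the 25-week libraries neither Rgs5, Cenpf nor Gstp2 passed (edgeR adjusted p = 0.234, 0.148 and 0.205). With a Pi16 threshold of 2 UMIs Rgs5 and Cenpf did not pass (edgeR adjusted p = 0.102 and 0.162), and Rgs5 did not with 5 UMIs (edgeR adjusted p = 0.0849). With cells thinned to 1500 UMIs neither Rgs5 nor Gstp2 passed (edgeR adjusted p = 0.0813 for both). Without the age block none of the 5 genes did. The genotype effect differed between Pi16 and other fibroblasts in 3 of 12605 genes (0.0238%, all higher; 712 had an unadjusted p under 0.05), namely Cenpf, Ube2c and Rspo1 (log2 fold change 3.02 ± 0.31 SE, edgeR adjusted p = 0.0449 for Cenpf).

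Of the gene lists, the calls between genotypes by edgeR reached 1 of 16 proliferation genes (Cenpf) and 1 of 8 mural and smooth muscle markers (Rgs5). The universal list had 0 of 24 genes called in either direction and a median of 0.04, the complement list 0 of 12, the type I interferon list 0 of 13 and the chemokine list 0 of 14. Among DESeq2's 15 calls over all genes, against 5 by edgeR, 14 were higher in K/B.g7. All 5 MHC class II genes tested had fitted values above 0 (median 1.69), and none passed. Macrophage markers were above 0 in 4 of 4 (median 1.21), immunoglobulin genes in 2 of 2 (median 1.89) and immediate early and dissociation genes in 0 of 18 (median -0.26), none of them called, and their part was not tested. The immediate early and dissociation genes did not go 1 way at all ages. They were higher in K/B.g7 in 14 of 18 at 3 weeks, 0 of 18 at 8 weeks and 2 of 18 at 25 weeks. Acta2, the actin of smooth muscle and myofibroblasts, had 228, 63.7 and 164 CPM in K/B.g7 and 123, 31.0 and 47.4 CPM in B.g7, higher at each age in K/B.g7 without reaching the threshold (log2 fold change 1.21 ± 0.21 SE, edgeR adjusted p = 0.0778).

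**Figure D5:**
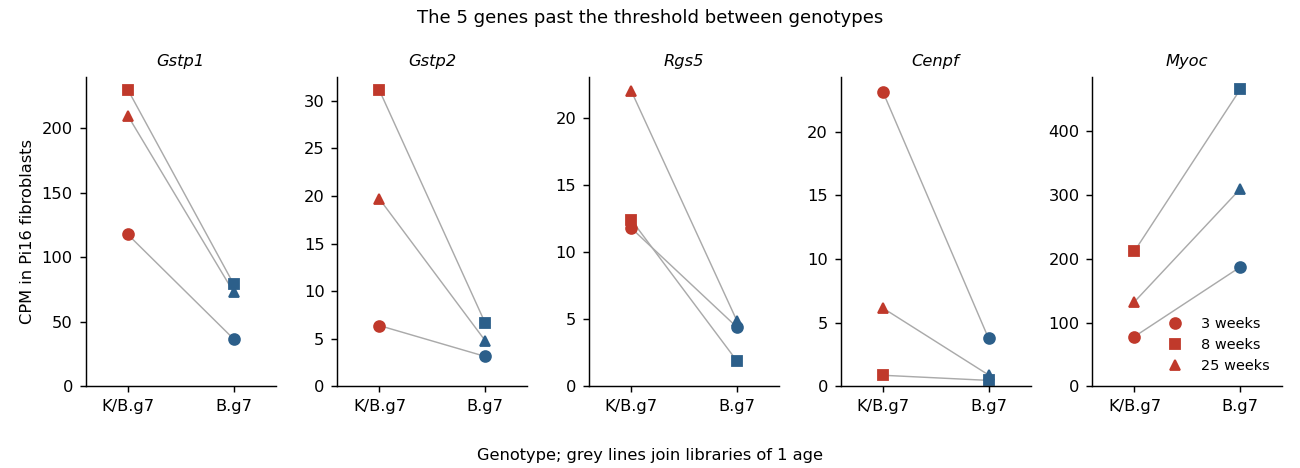
Level (CPM, y axis) of the 5 genes past the threshold between genotypes in Pi16 fibroblasts of K/B.g7 and B.g7 (x axis), with circles, squares and triangles for 3, 8 and 25 weeks and grey lines joining the libraries of 1 age. Gstp1, Gstp2, Rgs5 and Cenpf are higher in K/B.g7 and Myoc is lower at each age.

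At a single age there was 1 library per genotype, so ratios of K/B.g7 to B.g7 have no replicate check, and their exact 95% intervals cover counting error only. At 3 weeks 4.43% of 10255 genes were more than 2-fold higher and 1.23% more than 2-fold lower in K/B.g7. Of 17 proliferation genes 12 were more than 2-fold higher (median log2 ratio 2.49, against -0.01 over all genes). Lox had 190 CPM in K/B.g7 and 29.3 CPM in B.g7 at 3 weeks (ratio 6.48, 95% interval 5.25 to 8.09), and Stmn1 had 111 CPM in K/B.g7 and 22.7 CPM in B.g7 (ratio 4.89, 95% interval 3.84 to 6.32). Ifi27l2a, an interferon-induced gene, was lower, with 340 CPM in K/B.g7 and 1034 CPM in B.g7 (ratio 0.329, 95% interval 0.312 to 0.347).

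At 8 weeks 6.53% of 10424 genes were more than 2-fold higher and 0.959% more than 2-fold lower in K/B.g7. Cxcl14 had 791 CPM in K/B.g7 and 170 CPM in B.g7 (ratio 4.64, 95% interval 4.17 to 5.17), and C7, a late complement component, had 157 CPM in K/B.g7 and 30.5 CPM in B.g7 (ratio 5.16, 95% interval 4.02 to 6.73). Cytl1, a small secreted protein known from cartilage, was lower, with 88.2 CPM in K/B.g7 and 552 CPM in B.g7 (ratio 0.160, 95% interval 0.146 to 0.174). Hp, the hemoglobin-binding acute-phase protein haptoglobin, had 1643 UMIs in the K/B.g7 library and none in the B.g7 library, which makes it at least 112-fold higher against a floor of 3 counts in that library. Of 14 complement genes 6 were more than 2-fold higher, C1qa, C1qb and C1qc among them, and of 7 MHC class II genes 5. Of 6 macrophage markers 5, of 5 immunoglobulin genes 5 and of 4 red cell genes 4 were more than 2-fold higher as well, whereas 3 of 3 mesothelial markers (Msln, Upk3b and Slpi) were more than 2-fold lower (median log2 ratio -3.32). The part of these cell types in the ratios was not tested.

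At 25 weeks 5.37% of 11988 genes were more than 2-fold higher and 1.48% more than 2-fold lower in K/B.g7. Acta2 had 164 CPM in K/B.g7 and 47.4 CPM in B.g7 (ratio 3.45, 95% interval 3.13 to 3.805), and Tagln, a smooth muscle actin-binding protein, had 167 CPM in K/B.g7 and 41.4 CPM in B.g7 (ratio 4.04, 95% interval 3.65 to 4.48). Mural and smooth muscle markers were higher in K/B.g7 in 9 of 10, with 4 past 2-fold (Rgs5, Higd1b, Myh11 and Mcam), and summed to 188 CPM in K/B.g7 and 124 CPM in B.g7. Their part in the Acta2 and Tagln ratios was not tested. Sult1e1, which inactivates estrogen by sulfation, had 1.12 CPM in K/B.g7 and 135 CPM in B.g7 (ratio 0.00831, 95% interval 0.00453 to 0.0140). Ptx3, a soluble pattern receptor, had 38.9 CPM in K/B.g7 and 172 CPM in B.g7 (ratio 0.226, 95% interval 0.204 to 0.250), and Tnfaip6, which modifies hyaluronan, had 143 CPM in K/B.g7 and 443 CPM in B.g7 (ratio 0.323, 95% interval 0.305 to 0.341). Of 10 endothelial markers 6 were more than 2-fold higher in K/B.g7, within summed levels of 54.5 CPM in K/B.g7 and 31.7 CPM in B.g7.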

How the data were processed

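The authors deposited a UMI count, a whole number without normalization, for each of 31053 genes in each barcode of 6 libraries. Cell Ranger 3.1.0 and the mm10 build made them, per the submitters' processing notes, while the annotation version is not given in the sources used here. Depth ran from 15196750 to 69152541 UMIs per library, and 53526 of 58351 barcodes were kept. Genes were kept apart by identifier where 35 symbols are shared. Positions are from an mm10 annotation matched by identifier, and promoters from RefSeq (GRCm38.p6).

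Counts were summed per library and cell group for the quasi-likelihood F test of edgeR 4.0.16 in R 4.3.3, with TMM normalization and the filterByExpr filter, at a Benjamini-Hochberg FDR of 0.05 over all genes tested. The model had the library as a block between cell groups, and genotype and age together within Pi16 fibroblasts, so that the 3 ages are the replicates of genotype. Cell group by genotype and by age were interaction terms. SE is the size of the log2 fold change over the square root of F. Ages pair the libraries: deviations from the genotype means correlated by 0.484, 0.366 and 0.177 at 3, 8 and 25 weeks over 12190 genes. Shares were compared by exact permutation. DESeq2 1.42.0, other filters, normalization, Pi16 thresholds of 2 and 5 UMIs, thinning to 1500 UMIs, libraries left out, an Xist restriction and no block were alternatives. Doublets were kept in the main results. The automatic threshold of Scrublet (scanpy 1.11.5) marked 864 barcodes (1.61%), 820 of them in 1 library (K/B.g7, 25 weeks), so as an alternative the highest scores were marked at 0.8% per 1000 barcodes, 5203 in all and 965 of the Pi16 fibroblasts (9.26%).

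Between cell groups the named genes were the 15 of largest change past the threshold on each side (at least 50 CPM, 6 against the Smoc2 and Wif1 fibroblasts), up to 10 within Pi16 fibroblasts (at least 20 CPM), up to 4 per list, and 5 per direction at each age by ratio, with 1 direction in all libraries. The text gives part of them. The members, lists and tests were chosen with earlier results of these data known. The scripts were tested on simulated data. Python 3.11.15 with numpy 2.4.6, scipy 1.17.1, pandas 2.3.3 and matplotlib 3.10.9 was used.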

Additional observations from a re-analysis of the deposited data

Results flagged for a closer look

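Cenpf was picked out because its genotype difference in Pi16 fibroblasts differed from that in other fibroblasts by an interaction test. In Pi16 fibroblasts it had 23.2, 0.880 and 6.16 CPM in K/B.g7 mice at 3, 8 and 25 weeks and 3.78, 0.476 and 0.907 CPM in B.g7, and in other fibroblasts 14.2, 0.705 and 2.57 CPM in K/B.g7 and 16.4, 1.73 and 3.88 CPM in B.g7. The difference of the 2 genotype effects was 3.02 ± 0.31 on the log2 scale (SE; edgeR adjusted p = 0.0449). Ube2c, a ubiquitin-conjugating enzyme of mitosis, met the same test at 2.71 ± 0.28 (edgeR adjusted p = 0.0449), with 53.0, 0.293 and 2.80 CPM in K/B.g7 and 5.05, 0 and 1.63 CPM in B.g7 in Pi16 fibroblasts and 36.8, 1.65 and 1.59 CPM in K/B.g7 and 21.8, 2.50 and 6.41 CPM in B.g7 in other fibroblasts. The K/B.g7 library at 3 weeks was highest in both cell groups.

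Rspo1, a secreted activator of Wnt signalling, met it at 2.24 ± 0.23 (edgeR adjusted p = 0.0449). It had 2.70, 15.5 and 7.60 CPM in K/B.g7 and 1.58, 4.76 and 14.9 CPM in B.g7 in Pi16 fibroblasts, and 1.80, 9.82 and 4.16 CPM in K/B.g7 and 4.11, 11.3 and 43.6 CPM in B.g7 in other fibroblasts, where the B.g7 library at 25 weeks was highest. The other fibroblasts of that library also had the most summed mesothelial markers, 475 CPM, against 65.1 CPM in K/B.g7 at 25 weeks. The part of these markers in the Rspo1 call was not tested. Cenpf, Ube2c and Rspo1 were the 3 calls among 12605 genes (0.0238%), and without the 25-week libraries none of them passed (edgeR adjusted p = 0.0860 for Cenpf, 0.0648 for Ube2c and 0.244 for Rspo1). With no cell group by age term Ube2c did not pass either (2.46 on the log2 scale, edgeR adjusted p = 0.623).

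Apod was picked out because its change from 3 to 25 weeks differed between the cell groups, by 2.52 ± 0.13 on the log2 scale (SE; edgeR adjusted p = 0.00063). In Pi16 fibroblasts it had 14.6, 93.1 and 52.3 CPM in K/B.g7 and 19.2, 65.2 and 52.0 CPM in B.g7, and in other fibroblasts 146, 141 and 85.6 CPM in K/B.g7 and 118, 70.3 and 59.3 CPM in B.g7. It rose in Pi16 fibroblasts at 25 against 3 weeks (log2 fold change 1.66 ± 0.24 SE, edgeR adjusted p = 0.00353), and in other fibroblasts the log2 fold change was -0.88 ± 0.22 (edgeR adjusted p = 0.115).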

How the results depend on the processing

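Alternatives were followed gene by gene only for the ranked genes and the calls of the genotype, 25 against 8 weeks and interaction tests. Among these, no alternative turned a direction. Genes named from the lists alone, from the Smoc2 and Wif1 comparisons or by ratio at a single age were not followed. The age by cell group test had no alternative. The count between Pi16 and other fibroblasts, 3476 as reported, was 691 with no replicate block and 1629 to 3510 with 1 library or 1 age left out, lowest without the 25-week libraries. The genotype count, 5, was 15 by DESeq2, 163 with no filter on low counts, 3 with a Pi16 threshold of 2 UMIs, 36 in cells with an Xist UMI and 0 with no replicate block, and 7 to 621 with 1 age left out, highest without the 3-week libraries. By edgeR with no replicate block, 383 genes had an unadjusted p under 0.05, against 842 with the age block. At 25 against 3 weeks the count, 465, was 1149 with no filter, 733 in cells with an Xist UMI and up to 751 with 1 age left out. At 8 against 3 weeks, 679 became 1380 with no filter and 430 with cells thinned to 1500 UMIs. At 25 against 8 weeks, 4 became 23 by DESeq2, 137 with no filter, 9 and 2 with Pi16 thresholds of 5 and 2 UMIs, 22 with thinning, 13 with predicted doublets left out, 75 in cells with an Xist UMI and 243 without the 3-week libraries. The 3 calls of the genotype by cell group test became 9 to 142 with 1 age left out. The cause of these shifts was not tested, beyond the number of genes that the filter admits. Gstp1 lost its call in 1 alternative, with no replicate block. The share of Pi16 fibroblasts was higher in K/B.g7 by 9.38 percentage points as reported and by 1.62 to 15.99 points under its alternatives, of which those among all barcodes, among cells with an Xist UMI and among cells with a Y-linked UMI were chosen after seeing the data.

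With 1 library per genotype and age, an unusual library weighs on each contrast that holds it. Doublets, sex and cells of other types are uneven between libraries. Genes at a few CPM, such as Cenpf and Rgs5, rest on few UMIs.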

Other observations

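Of 11 imprinted growth genes tested in Pi16 fibroblasts, 4 fell at 8 against 3 weeks (Dlk1, Mest, Plagl1 and Grb10) and 1 at 25 against 3 weeks (Mest), and 0 rose in either, beside 2.11% and 1.06% of all genes lower in these comparisons. Mest, a hydrolase-like protein, had 24.0, 9.77 and 9.602 CPM in K/B.g7 mice at 3, 8 and 25 weeks and 31.9, 9.52 and 17.96 CPM in B.g7 (log2 fold change -1.40 ± 0.27 SE, edgeR adjusted p = 0.00903 at 8 against 3 weeks). Grb10, an adaptor that restrains insulin and growth factor receptors, had 117, 59.3 and 59.6 CPM in K/B.g7 and 77.3, 37.6 and 57.0 CPM in B.g7 (log2 fold change -0.96 ± 0.23 SE, edgeR adjusted p = 0.0313 at 8 against 3 weeks). For Mest and Grb10 both 3-week libraries lay above all others. Dlk1 had 4.83, 0 and 0.480 CPM in K/B.g7 and 1.26, 0 and 2.99 CPM in B.g7, with both 8-week libraries at 0.

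Of 15 ageing and stress genes tested, 5 rose at 25 against 3 weeks (Mt1, Mt2, Txnip, Gpx3 and Gstm1) and 0 fell, beside 2.76% of all genes higher. Mt1, a metal-binding metallothionein, had 735, 1237 and 1828 CPM in K/B.g7 and 424, 2229 and 2436 CPM in B.g7 (log2 fold change 1.85 ± 0.38 SE, edgeR adjusted p = 0.0198), and Gpx3, a secreted glutathione peroxidase, had 288, 536 and 570.1 CPM in K/B.g7 and 343, 521 and 614 CPM in B.g7 (log2 fold change 0.93 ± 0.24 SE, edgeR adjusted p = 0.0479). For Mt1 and Gpx3 both 3-week libraries lay below all others. Penk had 30.8, 111 and 66.8 CPM in K/B.g7 and 19.2, 66.7 and 91.2 CPM in B.g7 (log2 fold change 1.70 ± 0.30 SE, edgeR adjusted p = 0.0114), with the 3-week libraries lowest.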
